A study of Danio rerio with 10 samples.

Results

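Pancreatic digestive enzyme genes were examined in heart RNA from zebrafish kept in hypoxia or normoxia. The set was every probe set of the deposited value table whose single gene symbol named a chymotrypsinogen (ctrb, ctrl), prss1, prss59, a carboxypeptidase (cpa1 to cpa5, cpb1), an elastase (ela2, ela3) or a bile salt-stimulated lipase (cel). It held 15 probe sets for 13 genes, out of 15502 probe sets and 8793 named genes on the array. The set was chosen by the measured difference of the chymotrypsinogen gene ctrb.1, which had the largest fall in this same comparison, so the differences between hypoxia and normoxia given for it and its companions are a description and carry no test.

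Acinar cells of the pancreas make digestive enzymes, mostly as inactive precursors, and secrete them into the gut. Trypsin, made from the trypsinogen that prss1 encodes, activates the other precursors, among them chymotrypsinogen, proelastase and the procarboxypeptidases. In zebrafish the pancreas lies among the gut and the liver and holds both acinar tissue and hormone-producing islets. These enzymes are not known as heart muscle products.

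Total RNA from zebrafish hearts, labelled with biotin, was read on Affymetrix Zebrafish GeneChips. The hypoxia group and the normoxia group had 5 arrays each. By the labels, each group has 4 biological samples, and its array 5 is a technical repeat of sample 2. The sources used here do not give the strain, age or sex of the animals, the degree or duration of hypoxia, or how many hearts were pooled, so p-values measure only the spread between these samples. Hypoxia 1 with hypoxia 4 (SD of log2 differences 0.112 over 2247 bright probe sets) and normoxia 3 with normoxia 4 (0.0927) differed by no more than the less alike technical pair (0.151), so each pair was counted as 1 sample, leaving 3 counted samples in each group, named hypoxia 1/4, 2 and 3 for the one and normoxia 1, 2 and 3/4 for the other. Levels are log2 of the quantile-normalized intensity plus 1, and readings at or under 27.0 intensity units (the background bound, set at 2 SD of the background) were taken as not above background. That SD was estimated as the root mean square of the negative normalized readings without control probe sets, which takes the background as symmetric around 0. Normoxia 1 stood apart, with a correlation of 0.873 to 0.923 with the other normoxia arrays over the bright probe sets, against 0.949 or more for all other pairs of arrays within a group. The 6 measured heart muscle markers, including the myosin light chain gene myl7, were above that bound on all 10 arrays.

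Among the enzyme genes with signal enough to test, 2 had a difference over 1 log2, in opposite directions. The chymotrypsinogen gene ctrb.1 was 8.95-fold lower in hypoxia, and the trypsinogen gene prss1 was 2.4-fold higher on average, with overlapping groups. Of the 15 probe sets, 11 were under the background bound on at least 1 array. None of the 6 other probe sets that passed the intensity filter had a difference beyond 0.41 log2 in either direction.

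The probe set of ctrb.1 read 32.0, 24.9, 60.0, 34.4 and 34.4 normalized intensity units on hypoxia arrays 1 to 5, against 437, 251, 391, 420 and 256 on normoxia arrays 1 to 5. Every hypoxia array lay far below every normoxia array, and hypoxia 2 was under the background bound. Over counted samples the log2 level was 5.09, 4.92 and 5.93 in hypoxia 1/4, 2 and 3, against 8.77, 7.99 and 8.67 in normoxia 1, 2 and 3/4. The means were 5.31 ± 0.54 in hypoxia and 8.48 ± 0.42 in normoxia (SD, n = 3 each), a difference of -3.16 log2. With hypoxia readings this near the bound, adding 1 before the log and any remaining background can understate the fold. Of 10851 probe sets tested, 0 had a lower difference. In normoxia 85.1% of the probe sets tested had a lower mean level than the probe set of ctrb.1, and in hypoxia 25.3% did. In bulk RNA, fewer cells of a type and less RNA per cell cannot be told apart.

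A second probe set, which the annotation assigns to both ctrb.1 and its paralog ctrb.2 and which therefore stands outside the 15, showed the same pattern. It read 52.1, 43.1, 65.1, 43.8 and 35.5 units on hypoxia arrays 1 to 5, against 416, 237, 328, 335 and 227 on normoxia arrays 1 to 5. Its log2 means were 5.66 ± 0.36 in hypoxia and 8.31 ± 0.42 in normoxia (SD, n = 3 each), a difference of -2.65. The probe set of ctrb.2 alone was above the background bound on 1 array, hypoxia 3, at 44.2 units, and under it on the remaining arrays of both groups. Its log2 means were 3.80 ± 1.81 in hypoxia and 0.94 ± 0.82 in normoxia (SD, n = 3 each). This difference, 2.86, was opposite to that of ctrb.1, and the groups did not overlap. Both means were under the bound, and the probe set did not pass the intensity filter. The low signal of ctrb.1 in hypoxia was thus read by both probe sets that target it, and these share transcripts, so they are not independent measurements. In the RefSeq table (assembly GRCz12tu) ctrb.2 and ctrb.3 lie next to each other on one side of ctrb.1, and agrp and the proton pump subunit gene atp6v0d1 on the other. Of these neighbours ctrb.2 and atp6v0d1 had a probe set of their own, and atp6v0d1 was at 9.05 in hypoxia and 9.27 in normoxia, -0.22 log2 and not past the threshold of the test described below.

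**Figure D1:**
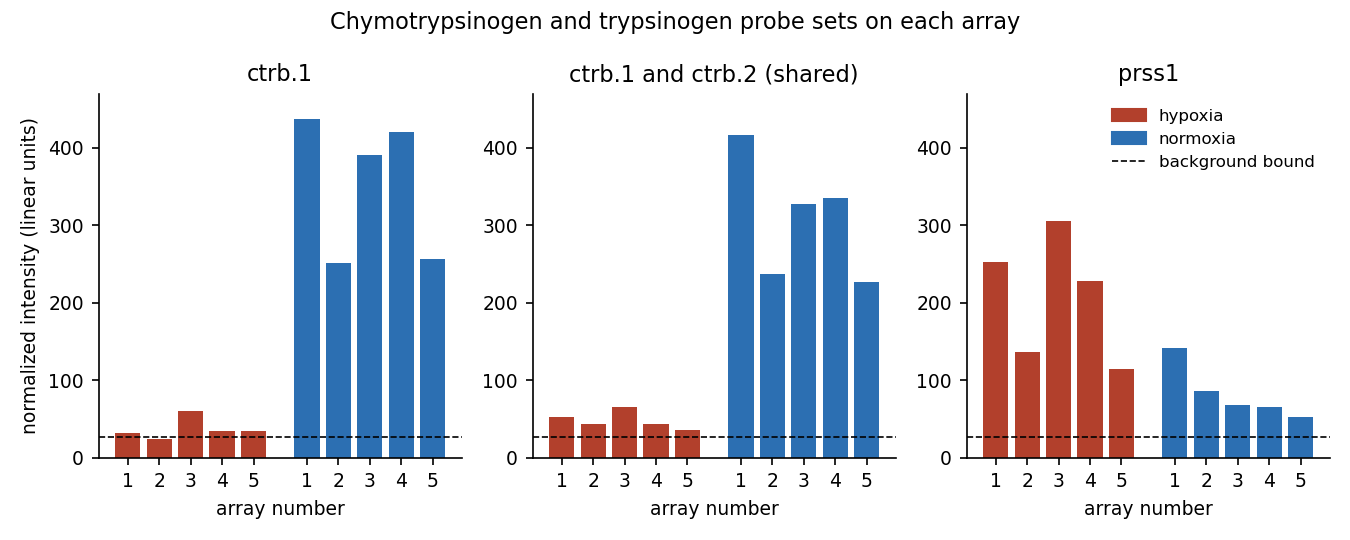
Normalized intensity (linear units) of 3 probe sets on each of the 10 arrays, with hypoxia arrays in red and normoxia arrays in blue; the dashed line is the background bound of 27.0 units and array 5 repeats sample 2. Both probe sets for ctrb.1 were near the bound on the hypoxia arrays and at 227 units or more on the normoxia arrays, while prss1 was at 114 to 306 units in hypoxia and at 52.9 to 142 units in normoxia.

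The trypsinogen gene prss1 was above the bound on all 10 arrays. It read 252, 137, 306, 228 and 114 units on hypoxia arrays 1 to 5, against 142, 86.1, 68.8, 66.2 and 52.9 on normoxia arrays 1 to 5. Hypoxia 3 was highest, and normoxia 1 lay above hypoxia 2 and its repeat, so the groups overlapped. Over counted samples the log2 level was 7.91, 6.98 and 8.26 in hypoxia 1/4, 2 and 3, against 7.16, 6.10 and 6.10 in normoxia 1, 2 and 3/4. The means were 7.72 ± 0.67 in hypoxia and 6.45 ± 0.61 in normoxia (SD, n = 3 each), a difference of 1.26 log2. With 1 counted sample left out it was 0.99 (without hypoxia 3) to 1.64 (without hypoxia 2), and 1.62 without normoxia 1. Of the probe sets tested, 2.86% had a higher difference.

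The whole table was fitted in limma, with the p-value adjusted by the Benjamini-Hochberg method over the 10851 probe sets that passed the intensity filter and a threshold of 0.05. Of the 15 enzyme probe sets 8 passed that filter, and 1 of the 8, that of ctrb.1, was called. Over all genes 431 probe sets were called, 3.97% of those tested, with 104 (0.958%) higher and 327 (3.01%) lower in hypoxia. The enzyme genes were chosen with this comparison known, so nothing is read from their count. The share that was lower is 75.9% here, 58.8% for the deposited values, 62.3% after cyclic loess and 90.5% after median scaling. The enzyme count was 0 without hypoxia 3 or without normoxia 1, each a fit to fewer samples, although the difference of ctrb.1 stayed at -3.47 and -3.01 log2. It was 2, with prss1 called as higher, when the 8 samples were counted as labelled. Groups did not overlap for 1 of the 8, again ctrb.1, and 27.2% of the probe sets tested were without overlap. The median difference over all probe sets tested was -0.05 log2.

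Carboxypeptidases remove residues from the C-terminal end of a peptide chain. For cpb1, which encodes carboxypeptidase B, set 1 of 2 probe sets gave 6.11 ± 0.41 in hypoxia and 6.13 ± 0.22 in normoxia (SD, n = 3 each), a difference of -0.02. The other, set 2, gave 5.59 ± 0.45 in hypoxia and 5.18 ± 0.47 in normoxia, a difference of 0.41. The gene cpa5, known in zebrafish also as a mast cell marker, was above the bound on all arrays, with 7.08, 5.77 and 6.83 in hypoxia 1/4, 2 and 3, against 6.47, 5.31 and 6.72 in normoxia 1, 2 and 3/4. For all 3 of these probe sets the groups overlapped and the difference was within the SD of a group. The probe set of cpa1 and both probe sets of cpa4 were under the bound on all 10 arrays, with highest readings of 14.4 units for cpa1 and 13.4 units for cpa4.

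Elastases cut proteins next to small residues. The gene ela2 was above the bound on 3 of 5 hypoxia and 4 of 5 normoxia arrays, with 5.32 ± 0.64 in hypoxia and 5.47 ± 0.49 in normoxia (SD, n = 3 each). The chymotrypsin-like gene ctrl was likewise above it on 3 hypoxia and 4 normoxia arrays, with 5.53 ± 1.15 in hypoxia and 5.52 ± 0.41 in normoxia. The difference was -0.15 for ela2 and 0.01 for ctrl, both smaller than the SD of either group. The genes ela2l and ela3l stood out on single arrays. The gene ela2l was above the bound on hypoxia 3 alone, at 90.1 units, and ela3l on hypoxia 3 at 93.0 units and on normoxia 1 at 55.9 units. Neither passed the intensity filter.

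The last 2 genes of the set were not alike in signal. The lipase gene cel.1, whose product digests lipid esters in the gut, was under the bound on all 10 arrays, with a highest reading of 17.8 units. A probe set assigned to cel.1, cel.2 and cell, which stands outside the 15, exceeded the bound on hypoxia 3 alone, at 28.6 units. The gene prss59 was above it on all 10 arrays, with 6.20 ± 0.32 in hypoxia and 6.45 ± 0.26 in normoxia (SD, n = 3 each) and overlapping groups. The RefSeq table gives prss16 as another name for prss59 and lists the trypsin-like genes prss59.1 and prss59.2 as separate genes, so the symbol does not identify prss59 as a trypsinogen gene. In all, 4 of the 15 probe sets were above the bound on every array, 7 on some arrays and 4 on none.

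**Figure D2:**
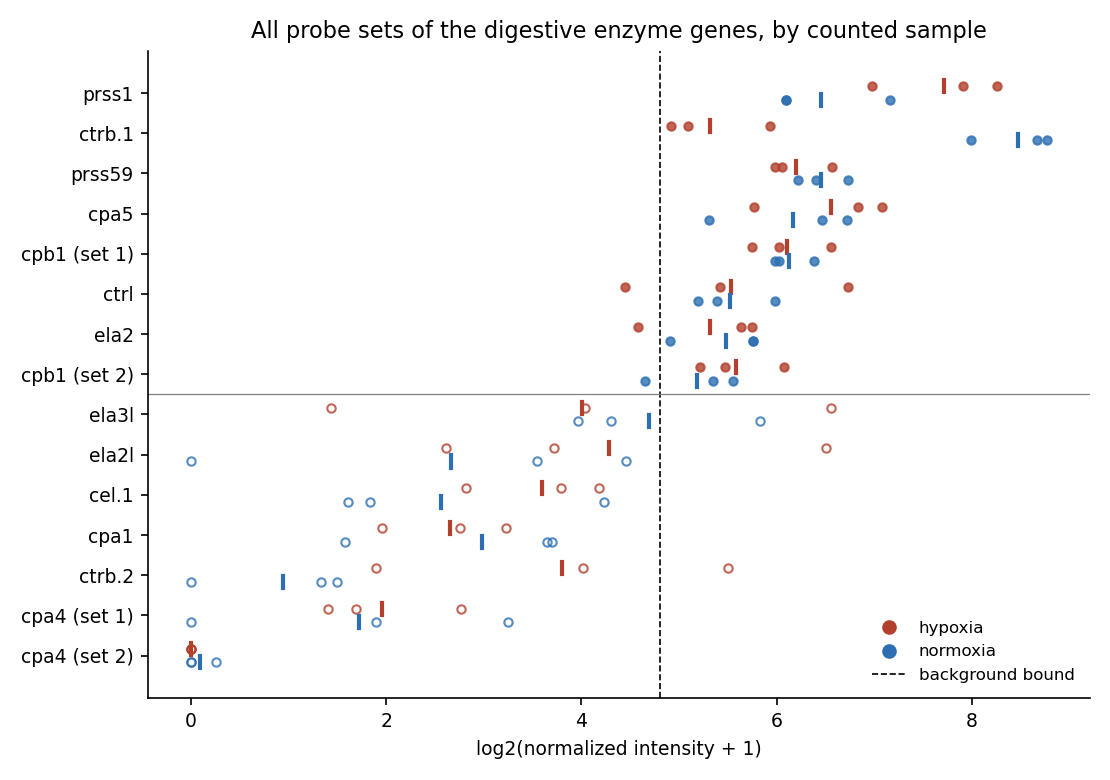
Log2 level of the 15 probe sets in each counted sample (points, 3 per group) with the group mean (bars), hypoxia in red above normoxia in blue; filled points above the grey line passed the intensity filter, open points did not, and the dashed line is the background bound (4.81 log2). The groups are far apart for ctrb.1, at 5.31 in hypoxia and 8.48 in normoxia, and overlap for the other 7 filled rows.

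Relative to every other tested enzyme probe set, ctrb.1 was lower in hypoxia. The log2 difference between ctrb.1 and prss1 within a sample was -2.82, -2.06 and -2.33 in hypoxia 1/4, 2 and 3, against 1.61, 1.89 and 2.57 in normoxia 1, 2 and 3/4. This difference is readable only as a change between samples, since the 2 probe sets need not have the same brightness per transcript. It shifted by -4.43 log2 between the groups, with means of -2.40 ± 0.39 in hypoxia and 2.02 ± 0.49 in normoxia (SD, n = 3 each). Against the other 6 probe sets the shift was -2.91 for prss59, -3.01 for ela2, -3.14 and -3.57 for cpb1, -3.17 for ctrl and -3.56 for cpa5. In each of these 7 pairs the hypoxia and normoxia samples did not overlap. This follows from the choice of ctrb.1 and is given without a test.

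Within a group, where the choice of genes played no part, the levels of ctrb.1 and of 6 of the 7 other tested probe sets were positively correlated, and no pair passed after adjustment. The share of all probe sets tested with a positive correlation to ctrb.1 was not computed, so nothing is read from 6 of 7. The gene cpb1 enters with both its probe sets, and the hypoxia readings of ctrb.1 were near the background bound. Deviations from the group mean were correlated over the 6 counted samples with an exact two-sided permutation of samples within groups, for which 0.0278 is the smallest p possible. Even 2 of the 7 pairs at that smallest permutation p had an adjusted p of 0.0972, so the test had little room to pass. The lack of a pass is therefore not read as a lack of correlation. For prss1 Pearson's r was 0.73 (exact permutation p = 0.167, adjusted p = 0.292 over 7 pairs) and Spearman's rho 0.66 (exact permutation p = 0.25, adjusted p = 0.389). For ctrl r was 0.88 (exact permutation p = 0.0278, adjusted p = 0.0972), and rho 0.89 (exact permutation p = 0.0833, adjusted p = 0.194). For cpb1 set 2 r was 0.98 (exact permutation p = 0.0278, adjusted p = 0.0972) and rho 1 (exact permutation p = 0.0278, adjusted p = 0.194). For cpb1 set 1 r was 0.88, for ela2 0.72, for cpa5 0.69 and for prss59 -0.03. Without hypoxia 3 and normoxia 2, the samples farthest from the median of the ctrb.1 deviations, r was 0.62 for prss1, 0.85 for ctrl and 0.99 for cpb1 set 2.

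The order of samples within a group was shared by much of the set. Of the 8 tested probe sets 8 were lowest in hypoxia 2 among the hypoxia samples, and 5 were highest in hypoxia 3, among them ctrb.1, prss1, ctrl and both of cpb1. Among probe sets in the same range of mean level (5.30 to 6.96 log2, 3897 probe sets), 31.3% were lowest in hypoxia 2 and 29.9% highest in hypoxia 3. Of the 8, 7 were highest in normoxia 1 and 6 lowest in normoxia 2, against 37.2% and 30.5% of the same 3897. Of the 7 dim probe sets, 3 (ctrb.2, ela2l and ela3l) had their highest reading on hypoxia 3, the others on hypoxia 1, normoxia 4 or normoxia 5. For ctrb.2 and ela2l hypoxia 3 was the only array above the bound, and nothing is read from these 3. Thus ctrb.1 shared the within-group order of prss1, ctrl and cpb1 in hypoxia, yet its highest hypoxia sample, at 5.93, was below its lowest normoxia sample, at 7.99.

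**Figure D3:**
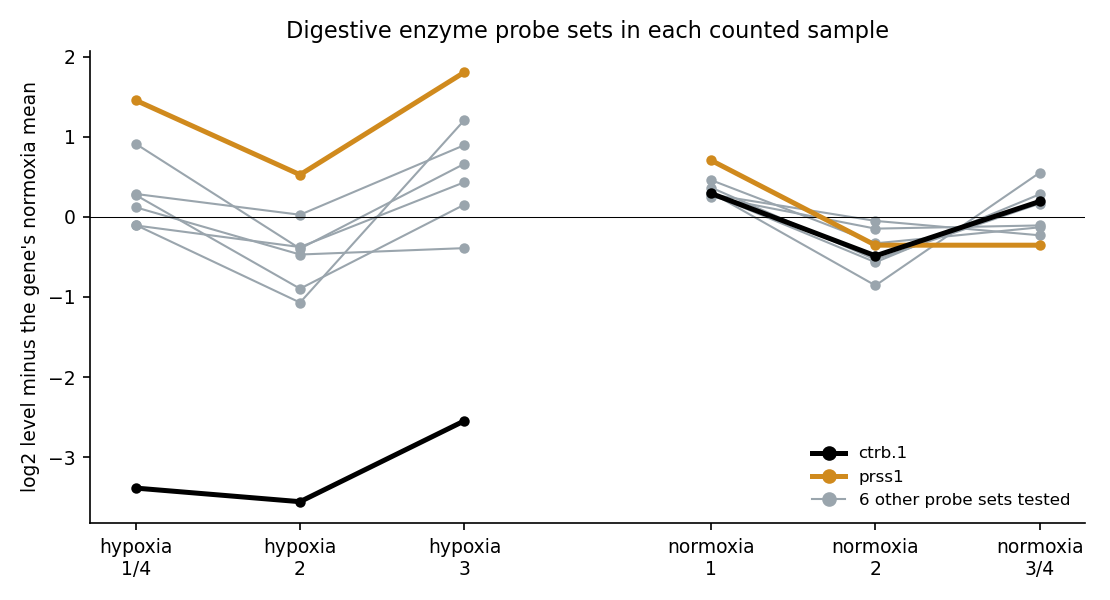
Log2 level of the 8 tested probe sets in each counted sample, minus the same probe set's mean in normoxia; black is ctrb.1, orange is prss1, grey are the other 6, and lines only join the points of 1 probe set within a group. In hypoxia ctrb.1 lies below and prss1 above all other lines, with the low point at hypoxia 2 for all 8.

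The arrays fell into 3 hybridization runs by the hybridization time in their records, with arrays 1 and 2 of both groups in run 1, arrays 3 and 4 in run 2 and the repeats in run 3. The difference of ctrb.1 was -3.51, -3.13 and -2.86 log2 in runs 1, 2 and 3, and that of the probe set shared with ctrb.2 was -2.70, -2.61 and -2.64. The difference of prss1 was 0.74, 1.95 and 1.09. Every run thus had ctrb.1 lower and prss1 higher in hypoxia, and the size varied more for prss1. The runs are not independent, since run 3 repeats RNA of run 1, and hypoxia 1 and hypoxia 4, of runs 1 and 2, were counted as 1 sample.

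**Figure D4:**
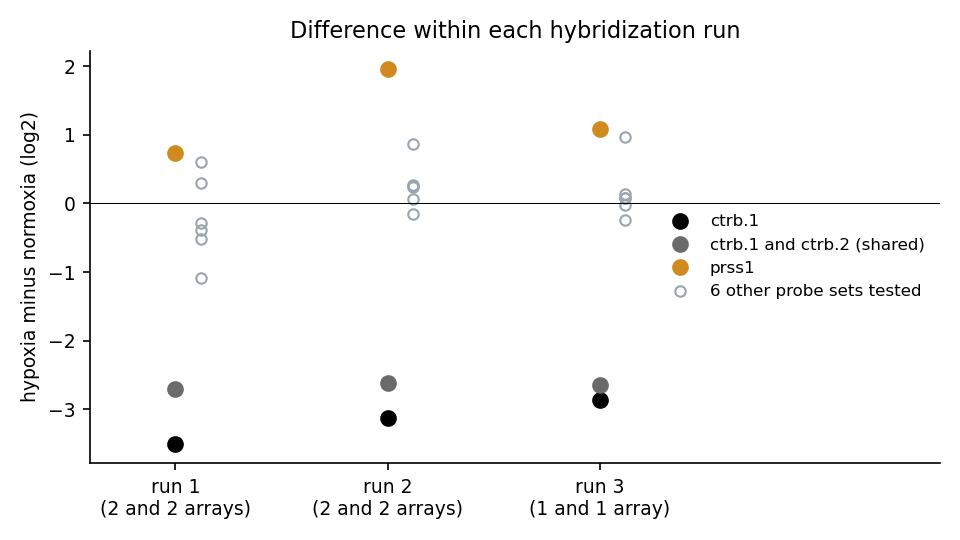
Hypoxia minus normoxia (log2) within each hybridization run, from 2 and 2 arrays in runs 1 and 2 and 1 and 1 array in run 3, for ctrb.1 (black), the probe set shared by ctrb.1 and ctrb.2 (dark grey), prss1 (orange) and the other 6 tested probe sets (open grey). Both ctrb.1 probe sets lay between -3.51 and -2.61 in the 3 runs, and prss1 between 0.74 and 1.95.

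Few other products of acinar cells had signal enough to test, and none of these passed. The list held 22 names, among them try and ctrc, which are other names of the members prss1 and ela2l. Outside the members 7 of its genes were measured, 4 passed the intensity filter, and 0 were called in either direction in limma. Over all probe sets tested 3.97% were called, so nothing is read from 0 of 4. The count was also 0 in all 22 alternatives, some of which called almost nothing in the whole table (0 in run 1 alone, 1 without hypoxia 3). Of the 4, 1 had an unadjusted p under 0.05 in limma, against 21.2% of the probe sets tested. The median difference of the 4 was 0.19 log2, against -0.05 for all probe sets tested. The amylase gene amy2al1, for a starch-digesting enzyme, was above the bound on all arrays, with 7.50, 8.47 and 8.41 in hypoxia 1/4, 2 and 3, against 5.23, 6.43 and 7.77 in normoxia 1, 2 and 3/4. Its groups overlapped, and the difference was 1.65. Within each group its order of samples was that of the liver list mean given below. The share of all probe sets with that order was not computed, so nothing is read from it. The source of the amy2al1 signal was not tested. The gene sycn.2, for a protein of secretory granules, was at 5.80 ± 0.30 in hypoxia and 5.72 ± 0.24 in normoxia (SD, n = 3 each). The amylase gene amy2a was above the bound on 2 normoxia arrays, with a highest reading of 33.3 units. The elastase gene cela1.1 was above it on hypoxia 3 alone, at 33.1 units, and cela1.6 on hypoxia 3, at 60.3 units, and normoxia 1, at 73.3 units. The elastase gene cela1.5 and the phospholipase gene pla2g1b were under the bound on all arrays. The difference of pla2g1b, -2.62 log2 with overlapping groups, thus lay wholly under the bound.

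Regulators of the exocrine pancreas and islet genes were near background. The acinar transcription factor gene ptf1a exceeded the bound on 1 normoxia array, by a reading of 27.5 units against the bound of 27.0, and pdx1, a pancreas transcription factor gene, on none. The duct and cartilage factor gene sox9b exceeded it on 2 hypoxia and 2 normoxia arrays and had a difference of 0.34, not past the threshold. Of 8 measured islet genes 7 were under the bound on all 10 arrays, and the insulin gene ins exceeded it on 2 normoxia arrays, with a highest reading of 39.8 units. Its difference was -2.25 log2, the direction of ctrb.1, with overlapping groups and both means under the bound. The islet genes pyya and sst1.1 had 0.67 and 0.47, while neurod1, gcga and sst2 had -0.64, -0.21 and -0.02. All of these were under the bound on all 10 arrays. The summed normalized intensity of the exocrine products list was 270 to 514 units in hypoxia samples and 178 to 305 in normoxia samples. Most of the hypoxia sum came from 1 gene, amy2al1, at 172 to 374 units on hypoxia arrays and 36.5 to 222 on normoxia arrays. The sum thus does not describe the list as a whole. That of the islet list was 32.1 to 58.9 in hypoxia and 47.5 to 71.5 in normoxia.

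Liver gene signal was higher in the hypoxia samples, where ctrb.1 was lower. The summed intensity of 20 measured liver genes was 22700 to 40700 units in hypoxia samples and 3390 to 17300 in normoxia samples. All 20 had a higher mean in hypoxia. Of the 20, 2 were called higher, the hemopexin gene hpxa by 4.35 log2 and the haptoglobin gene hp by 2.16. None was called lower, and 0.958% of the probe sets tested were called higher. In limma 18 of the 20 had an unadjusted p under 0.05, against 21.2% of the probe sets tested. The median difference of the 20 was 2.37 log2, but 1.5 without normoxia 1. Runs 2 and 3 do not hold normoxia 1, and the median was 0.86 in run 2 and 2.37 in run 3. Run 3 has 1 array per group. All 20 were above the bound on at least 1 array. The liver list mean was 9.37, 10.41 and 10.08 log2 in hypoxia 1/4, 2 and 3, against 5.43, 8.20 and 8.68 in normoxia 1, 2 and 3/4. Within hypoxia, hypoxia 2 had the highest liver list mean and the lowest ctrb.1 level, at 4.92. Within normoxia, normoxia 1 had the lowest liver list mean and the highest ctrb.1 level, at 8.77. Between the remaining samples the order was the same in both, with hypoxia 3 above hypoxia 1/4 and normoxia 3/4 above normoxia 2. The part of liver RNA in the difference of ctrb.1 was not tested. The list of 12 measured intestine genes had 0 calls in limma, with 1 gene at an unadjusted p under 0.05 and 6 genes under the bound on all arrays. Its summed intensity was 1120 to 1850 in hypoxia and 756 to 1150 in normoxia. The median difference of its 5 tested genes was -0.04 log2, and the largest was 2.22, for the apolipoprotein gene apoa4b.1.

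Of 3 measured genes for protease inhibitors 0 were called in limma, and 2 had an unadjusted p under 0.05. Over all probe sets tested these shares were 3.97% and 21.2%. The alpha-1-antitrypsin-like gene serpina1l, a liver product whose family inhibits serine proteases, had a difference of 3.64 log2, with 11.75 ± 0.49 in hypoxia and 8.11 ± 3.13 in normoxia (SD, n = 3 each). The protease inhibitor gene spint2 had 1.19 and spint1a 0.52.

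The other lists gave few calls, and these rested on the full set of samples. Over all probe sets tested 0.958% were called higher and 3.01% lower, and 21.2% had an unadjusted p under 0.05 in limma. Without hypoxia 3, or with no intensity trend in limma, 0 of the 5 genes called in these and the liver list (hpxa, hp, epcam, elf3 and ttn.2) passed, and without normoxia 1 only hpxa did. Of 10 measured gill and skin genes 9 were tested, and 4 had an unadjusted p under 0.05 in limma. Of the 9, 5 had a higher mean in hypoxia. Among these 2 were called, the adhesion gene epcam, higher by 2.88 log2, and the epithelial transcription factor gene elf3, by 2.30. The gene elf3 was under the bound on every normoxia array. The keratin genes krt93 and krt94 had differences of -0.93 and -0.30 with groups that did not overlap, krt5 had -0.73 and the claudin gene cldnb -0.72, none past the threshold. The list had a median difference of 0.16 and a summed intensity of 3240 to 5530 in hypoxia and 3990 to 5470 in normoxia. Of 6 measured leukocyte genes, cpa5 among them, 0 were called in limma, 0 had an unadjusted p under 0.05, and the list had a summed intensity of 942 to 2040 in hypoxia and 1130 to 1450 in normoxia. Of 6 heart muscle genes 0 had a higher mean in hypoxia, and only the titin gene ttn.2 was called, lower by 0.56 (-0.78 after median scaling). The list had a summed intensity of 31500 to 33000 in hypoxia and 34000 to 36000 in normoxia.

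The profile of ctrb.1 over the 6 counted samples is mostly the difference between the groups by which it was chosen, so the genes most like it are a description. Among 1980 tested probe sets with 1 symbol and a range of at least 1 log2, the highest Pearson correlations with ctrb.1 were 0.988 for zgc:56235, 0.987 for acads, 0.983 for acadl, 0.979 for rfx2 and 0.976 for zgc:113054. The genes acads and acadl encode acyl-CoA dehydrogenases of mitochondrial fatty acid oxidation, and rfx2 a transcription factor. Their differences, from -1.25 to -0.78 log2, were smaller than that of ctrb.1. For prss1 the highest were 0.972 for pttg1ipb, 0.967 for fhdc2, 0.964 for birc5b, 0.960 for fam117ab and 0.956 for harbi2, and 0 of these 5 were called. The normoxia means of fhdc2, birc5b and fam117ab, at 4.38, 3.01 and 4.44 log2, were under the background bound of 4.81. With 6 samples in 2 groups a high correlation says little about a link between 2 genes. Of the 1980, 25 exceeded 0.95 for ctrb.1 and 6 for prss1.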

How the data were processed

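The deposited table gives linear intensities of 15617 probe sets on 10 arrays, 7.86 to 10.1% of them at or below 0; how the authors made these intensities is not given in the sources used here. Median intensity was 36.2 to 51.6 per array, and the number of arrays limits the precision. The other deposited records, per the file headers, hold chip and hybridization notes and no expression value.

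Values were quantile normalized, set to at least 0, increased by 1 and put on a log2 scale. The 115 control probe sets and the lowest 30% by mean level (under 4.02 log2) were left out, which left 10851. Arrays of 1 counted sample were averaged. limma 3.58.1 (R 4.3.3; lmFit, eBayes with an intensity trend) was tested on simulated data. Figures used matplotlib 3.10.9.

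Gene symbols came from the platform annotation (10795 probe sets with 1 symbol, 135 with several, 4572 with none), updated through RefSeq. Lists use the probe set of the highest mean per gene. Named genes are all members, every exocrine, regulator or islet gene above background on any array and the 2 largest called changes of each other list; a few more were named after their values were seen. Likeness is Pearson's r. Members and lists were chosen with earlier results of these data known. The labels' numbers do not state a pairing; 2 of 4 same-numbered pairs had correlated deviations over 0.1 (0.21 and 0.14), 2 did not (-0.04 and -0.11). Alternatives covered scaling, filter, pseudocount, floor, sample counting, runs and left-out samples.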

Additional observations from a re-analysis of the deposited data

How the results depend on the processing

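The sign of the ctrb.1 difference held in all 20 alternatives (-3.51 to -2.75 log2), as did that of prss1 (0.74 to 1.95, with 1.95 in run 2 alone). The shift of ctrb.1 relative to prss1 was -3.88 with a pseudocount of 16, -5.08 in run 2 alone and -3.96 in run 3 alone, and the cause was not tested. The correlation of ctrb.1 with prss1 was 0.60 to 0.88 in 14 alternatives; 6 of these leave out 1 sample and allow no p below 0.083, so they could not pass. It was not computed for the fits with a block or for single runs. The other exocrine products, with 4 genes tested, had 0 calls in limma in all 22 alternatives, some of which called almost nothing in the whole table.

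The count of enzyme probe sets called, 1, was 2 with the 8 samples as labelled, with all 10 arrays and run as a block, with the replicate block on the 8 samples as labelled and in run 2 alone. It was 0 in run 1 alone and with no intensity trend, and 0 to 1 when 1 counted sample was left out. The count over the whole table, 431, was 102 for the deposited values, 789 after median scaling, 1390 with the 8 samples as labelled, 1013 with all 10 arrays, 870 with run as a further block, 1062 with the replicate block, 0 in run 1 alone, 1035 in run 2 alone (which takes normoxia 3 and 4 as 2 samples), 171 without the filter and 2 with no intensity trend. It was 1 to 204 when 1 counted sample was left out, lowest without hypoxia 3. With the control probe sets left out before normalization, an alternative chosen after seeing the data, it was 435. The 5 list genes called kept their call and direction under the other 3 scalings, but 0 kept the call without hypoxia 3 or with no intensity trend, and 1 to 3 did without 1 of the other counted samples. These list checks were also added after seeing the data. No probe set tested lacked spread within groups, but 427 did without the filter. Without adjustment 2298 probe sets had p under 0.05. Signals near the background bound limit what can be said of the dim enzyme genes.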
